A study of Homo sapiens with 6 samples.

Results

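A set of 10 germinal centre marker genes, none of them a master regulator, was followed in Raji cells with an shRNA against OBF1. The 10 genes were chosen by name, with earlier results of these data known. They were SERPINA9, LMO2, MYBL1, STMN1, GCSAM, IRAG2 (older name LRMP), KLHL6, TCL1A, EAF2 and NEIL1. All 10 had a row among the 23459 gene rows of the count table, and all 10 were among the 12010 genes that passed the filter on low counts. LMO2 passed through the OBF1 shRNA libraries alone, since its 3 control libraries were under the minimum of 10 reads. Raji is an established Burkitt's lymphoma line derived from a germinal centre B cell. The OBF1 shRNA libraries came from Raji cells carrying OBF1sh1, a single lentiviral hairpin against POU2AF1, the gene of OBF1, and the control libraries from Raji cells carrying the non-target hairpin SHC002. Cells of both groups were exposed to lentivirus for 5 days and then kept in 3 μg/ml puromycin for 7 days, so the control cells were also infected and drug-selected. Poly(A) RNA was sequenced in 3 libraries per group, and the labels do not say whether these came from separate cultures, so the p-values measure the spread between libraries, which may be technical.

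The germinal centre is the site in a lymphoid follicle where B cells that have met antigen divide, mutate their antibody genes and are selected. The genes followed here were grouped as markers of this stage, and their products do very different things. Such markers help to tell germinal centre B cells and the lymphomas derived from them from other B cells. Not all of the genes are confined to this stage, since STMN1 is abundant in dividing cells. OBF1 is a coactivator that B cells need to form germinal centres. It has no strong DNA contact of its own and sits with the Oct1 or Oct2 protein on the octamer, a short DNA word found in immunoglobulin promoters.

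Because OBF1 works through the octamer, the promoters of the marker genes are shown first where they hold its letters. RefSeq promoters (build GRCh38.p14, 250 bases before to 50 after a gene's annotated start) were found for 8 of the 10 genes, 14 promoters in all. LMO2 and MYBL1 had no entry. The octamer was searched as ATGCAAAT on both strands, where the other strand reads ATTTGCAT, and the 7-letter words ATGCAAA and TGCAAAT, which lie inside it, were searched in the same way. The whole octamer was present in 1 of the 8 genes, SERPINA9. Of 27305 genes in the table, 2.19% held it in at least 1 promoter, and of 35116 promoters 1.77%. The SERPINA9 promoter held it at 2 places, and 13 promoters of the table, 0.037%, held it more than once in the bases before the start. The 250 bases before the SERPINA9 start, minus strand of chr14:94476198-94476447, are printed below with the octamers in capitals, because the pair lies within a directly repeated stretch.
SERPINA9: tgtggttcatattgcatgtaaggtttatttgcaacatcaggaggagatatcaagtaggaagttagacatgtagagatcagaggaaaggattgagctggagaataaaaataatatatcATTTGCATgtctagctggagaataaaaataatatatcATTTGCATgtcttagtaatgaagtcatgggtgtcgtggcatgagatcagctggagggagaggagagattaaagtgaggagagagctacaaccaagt
The octamers begin at positions -133 and -96 from the start. Each stands in a copy of the same 37 bases, repeated head to tail with no gap, from -158 to -122 and from -121 to -85.
Repeat unit: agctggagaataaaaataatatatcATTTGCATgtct
A further word of 7 octamer letters, reading ATTTGCA, began at -224.

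IRAG2, the marker gene with the most counts in OBF1 shRNA libraries, had 3 promoters in the table. The one at chr12:25052456-25052705, plus strand, held the first 7 letters of the octamer at position -68. It is printed with those 7 letters in capitals, for comparison with SERPINA9.
IRAG2: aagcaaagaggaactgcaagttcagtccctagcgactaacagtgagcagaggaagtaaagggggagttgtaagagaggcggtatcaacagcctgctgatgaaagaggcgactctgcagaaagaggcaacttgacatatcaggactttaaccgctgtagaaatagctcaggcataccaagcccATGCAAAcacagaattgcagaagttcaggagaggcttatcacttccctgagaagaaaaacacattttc
This 7-letter word was present in 4.46% of all promoters. The promoters of STMN1, GCSAM, KLHL6, TCL1A, EAF2 and NEIL1 held none of the 3 words in these windows. A match of letters is a description of the reference sequence, and binding was not measured here.

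**Figure D1:**
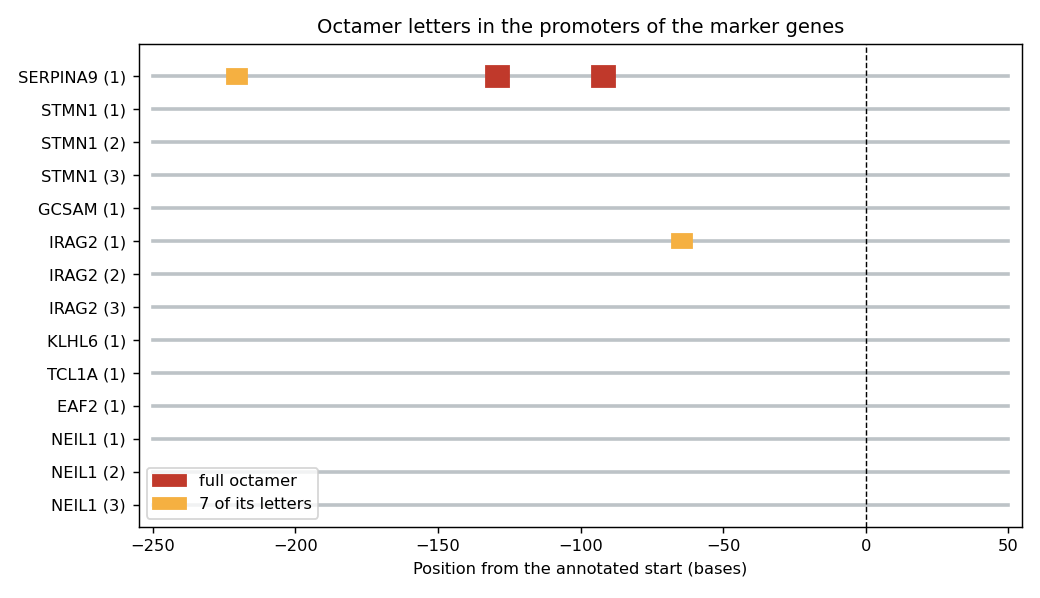
Octamer letters in the 14 RefSeq promoters of 8 marker genes, by position from the annotated start in bases, 1 row per promoter with its number in brackets. SERPINA9 holds the whole octamer at -133 and -96 and 7 of its letters at -224, and the first IRAG2 promoter holds 7 letters at -68.

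The labels and the depth were checked on the whole table. Total counts were 29569281 to 32612429 in OBF1 shRNA libraries and 29913810 to 32546352 in control libraries. POU2AF1 was at 244, 241 and 241 CPM (counts per 1000000 reads, scaled between libraries with TMM, edgeR's trimmed mean method) in OBF1 shRNA libraries, against 512, 516 and 512 CPM in control libraries. All 7 B cell markers were present in both groups, and with OBF1 shRNA 6 of these were called higher and CD79B lower. Sizes differed, from 1.10-fold higher for CD79A and 1.09-fold lower for CD79B to 2.96-fold higher for MS4A1. These counts and those of the markers below stand beside 37.5% of all tested genes called higher and 37.9% called lower (edgeR adjusted p under 0.05). Markers of T and NK cells summed to between 0.879 and 1.02 CPM in OBF1 shRNA libraries and between 0.192 and 0.268 CPM in control libraries, with CD3D, CD2 and GNLY at 0 in all libraries; 1 of the 9 with a row was tested, NKG7, and it was higher. Myeloid markers summed to between 3.24 and 3.61 CPM in OBF1 shRNA libraries and between 3.45 and 3.59 CPM in control libraries, with S100A9, CD163 and MPO at 0; of 4 tested 1 was higher and 1 lower. The 10 markers of 293T, the line that packaged the virus, summed to between 65.1 and 68.7 CPM in OBF1 shRNA libraries and between 64.2 and 68.1 CPM in control libraries, nearly all of it PODXL, while NEFM, INA, CDH2 and KRT18 were at 0. PODXL and VGF, the 2 of these that were tested, did not pass.

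The marker genes did not move as a block with OBF1 shRNA. OBF1 was followed as POU2AF1 RNA and not as protein. With a single hairpin against a single control hairpin, other effects of the hairpin cannot be told apart from those of less OBF1. LMO2, IRAG2, GCSAM, KLHL6 and SERPINA9 were higher in OBF1 shRNA cells, NEIL1, MYBL1 and TCL1A were lower, and STMN1 and EAF2 did not pass (edgeR quasi-likelihood F test with Benjamini-Hochberg adjustment over all 12010 genes, threshold 0.05). The changes ran from 2.33-fold higher for IRAG2 to 2.91-fold lower for NEIL1, apart from LMO2, which had to be higher to be tested at all. That 8 of 10 passed is close to the background, since 75.4% of all tested genes were called, 37.5% higher and 37.9% lower. Changes of at least 1.5-fold were called in 4 of the 10 genes, 2 higher and 2 lower, against 23.3% of tested genes, 12.9% higher and 10.4% lower. Changes of at least 2-fold were called in 3 of the 10, 2 higher and 1 lower, against 10.9% of tested genes, 6.59% higher and 4.35% lower. LMO2 is 1 of the higher genes in each of these counts. The median log2 fold change of the 10, LMO2 included, was 0.18, beside -0.01 over all tested genes. In bulk RNA, fewer cells with a transcript and less of it per cell cannot be told apart.

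**Figure D2:**
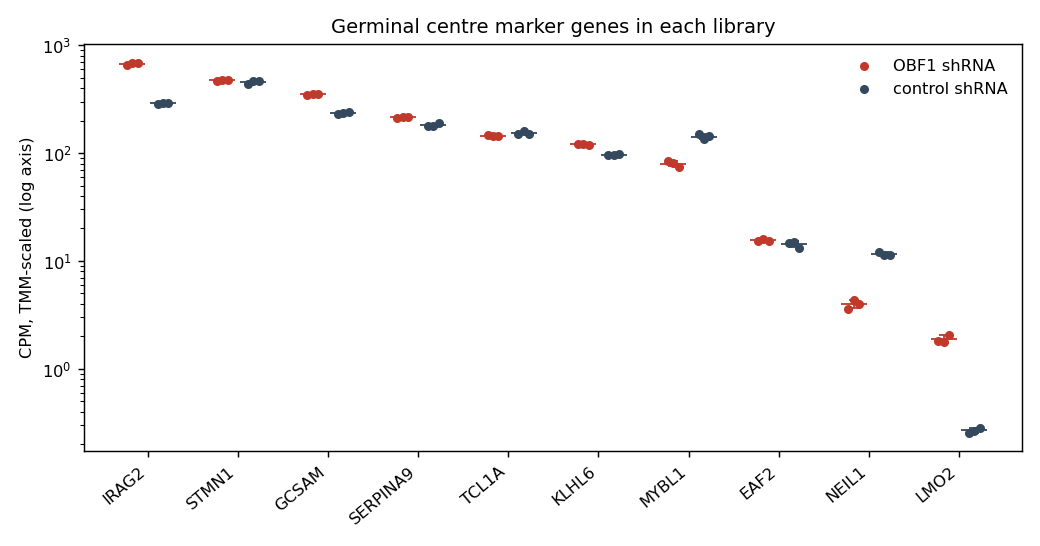
CPM of each marker gene in each library on a log axis, OBF1 shRNA on the left of each pair and control shRNA on the right; points are libraries, the dash is the mean and the bar the SD (n = 3). LMO2, IRAG2, NEIL1 and MYBL1 show gaps much wider than the spread of libraries, while TCL1A, STMN1 and EAF2 lie close together.

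Among products that act at membranes and in signalling, IRAG2 changed most. IRAG2 is a lymphocyte protein anchored in the endoplasmic reticulum membrane, linked to calcium release. It was at 661, 690.4 and 678 CPM in OBF1 shRNA libraries, against 286, 294 and 291 CPM in control libraries. Every OBF1 shRNA library was thus far above every control library. The gene was 2.33-fold higher (log2 fold change 1.22, SE 0.03, edgeR adjusted p = 6.86e-18), a change larger in size than that of 92.0% of tested genes. DNAI7, which overlaps IRAG2 in the RefSeq annotation, stayed under the count filter, at 0.198 CPM in OBF1 shRNA libraries and 0.135 CPM in control libraries.

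GCSAM, also called HGAL, is an adaptor that tunes B cell receptor signalling and slows lymphocyte migration. Its level was 343, 355 and 351 CPM in OBF1 shRNA libraries, against 233, 238 and 240.0 CPM in control libraries. The groups stood well apart, and the libraries of a group differed little. The rise was 1.48-fold (log2 fold change 0.56, SE 0.03, edgeR adjusted p = 7.12e-13), with a 95% interval from 1.42-fold to 1.53-fold. C3orf52, an overlapping gene, was at 0.633 ± 0.152 CPM in OBF1 shRNA libraries and 0.684 ± 0.345 CPM in control libraries (SD, n = 3).

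KLHL6 is a substrate adaptor of the cullin-3 ubiquitin ligase, needed in mice for full germinal centres. It measured 122, 122 and 119 CPM in OBF1 shRNA libraries, against 96.8, 95.1 and 98.1 CPM in control libraries. The lowest OBF1 shRNA library lay above the highest control library. The gene was 1.25-fold higher (log2 fold change 0.32, SE 0.03, edgeR adjusted p = 1.60e-08), and 53.7% of tested genes changed by less.

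TCL1A, a coactivator of the AKT kinases, moved slightly the other way. The OBF1 shRNA libraries held 147, 143 and 144 CPM and the control libraries 151, 159 and 151 CPM. The groups did not overlap, but the gap between them was narrower than the range within the control group. TCL1A was 1.06-fold lower (log2 fold change -0.09, SE 0.03, edgeR adjusted p = 0.0102). Control replicate 2 had the highest value, and without it the call was lost (edgeR adjusted p = 0.083).

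SERPINA9, or GCET1, encodes a serine protease inhibitor characteristic of germinal centre B cells. It stood at 209.8, 217 and 215 CPM in OBF1 shRNA libraries, against 178, 178 and 189 CPM in control libraries. All OBF1 shRNA libraries were above all control libraries, and control replicate 3 was the highest of its group. The gene, whose promoter with its 2 octamers is printed above, was 1.18-fold higher with OBF1 shRNA (log2 fold change 0.23, SE 0.03, edgeR adjusted p = 7.49e-07). The size of its change was near the middle of the transcriptome, and 59.0% of tested genes changed by more. With library sizes alone in place of TMM its log2 fold change was 0.13, still called.

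The next 3 products work on transcription, and they went different ways. LMO2, a LIM-only protein that bridges DNA-binding factors in large complexes and marks germinal centre B cells, had the widest change. Its raw counts were 52, 54 and 65 reads in OBF1 shRNA libraries, against 8, 9 and 9 reads in control libraries. On the CPM scale these were 1.83, 1.77 and 2.07 in OBF1 shRNA libraries and 0.256, 0.268 and 0.286 in control libraries. LMO2 was thus scarce in both groups, with few reads in control cells, but its groups were far apart. It was 6.93-fold higher, with a 95% interval from 4.91-fold to 9.79-fold (log2 fold change 2.79, SE 0.24, edgeR adjusted p = 5.38e-09). As its control counts were under the filter, a gene with so few reads could enter the test only by being higher in OBF1 shRNA libraries, and its p is given as a description.

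MYBL1, or A-MYB, a transcription factor of the MYB family that is high in dividing germinal centre B cells, fell. It was at 84.1, 81.4 and 74.6 CPM in OBF1 shRNA libraries, against 149, 134 and 143 CPM in control libraries. The highest OBF1 shRNA library stayed well below the lowest control library, and relative to their means both groups spread more than those of GCSAM or IRAG2 (coefficient of variation 6.14% in OBF1 shRNA libraries and 5.45% in control libraries). The gene was 1.78-fold lower (log2 fold change -0.83, SE 0.04, edgeR adjusted p = 5.75e-12).

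EAF2, a partner of the ELL elongation factors of RNA polymerase II, did not pass the test. Its values were 15.2, 16.1 and 15.4 CPM in OBF1 shRNA libraries and 14.6, 15.1 and 13.2 CPM in control libraries. The groups lay next to each other with almost no gap. The estimate was 1.09-fold, with a 95% interval from 0.990-fold to 1.20-fold (edgeR adjusted p = 0.0958). Without control replicate 2 the gene was called higher (edgeR adjusted p = 0.0382).

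NEIL1, a DNA glycosylase that removes oxidised bases in base excision repair, showed the largest loss of the marker genes. It was at 3.62, 4.33 and 3.99 CPM in OBF1 shRNA libraries, against 12.1, 11.3 and 11.4 CPM in control libraries, from 103, 132 and 125 reads and from 377, 381 and 359 reads. The groups were separated by far more than the spread within either. NEIL1 was 2.91-fold lower (log2 fold change -1.54, SE 0.09, edgeR adjusted p = 1.75e-11), and 1.90% of tested genes had a lower log2 fold change. MAN2C1, an α-mannosidase gene that overlaps NEIL1 in the RefSeq annotation, was higher, at 24.7 ± 2.36 CPM in OBF1 shRNA libraries and 17.8 ± 2.21 CPM in control libraries (SD, n = 3, edgeR adjusted p = 2.71e-05). The strand setting of the counting is not given, so reads from the shared stretch cannot be assigned with certainty to either gene.

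STMN1 encodes stathmin, a protein that takes microtubules apart and is abundant in dividing cells. Its level was 469, 473 and 479 CPM in OBF1 shRNA libraries, against 435, 465 and 462 CPM in control libraries. Control replicate 1 was low and the other two reached nearly to the OBF1 shRNA libraries. The estimate of 1.04-fold (95% interval 1.003-fold to 1.09-fold) missed the threshold (edgeR adjusted p = 0.051), and its sign depended on the scaling. With library sizes alone it was -0.05 on the log2 scale (edgeR adjusted p = 0.0951). DESeq2 called it higher (adjusted p = 0.0375), as did limma-voom (adjusted p = 0.0448). Genes of the cell cycle, given beside it since STMN1 is a gene of dividing cells, were lower in 13 and higher in 6 of 20 members, beside 37.9% lower and 37.5% higher over all tested genes, and 1 of the 20, lower, changed at least 1.5-fold; whether they bear on STMN1 was not tested.

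**Figure D3:**
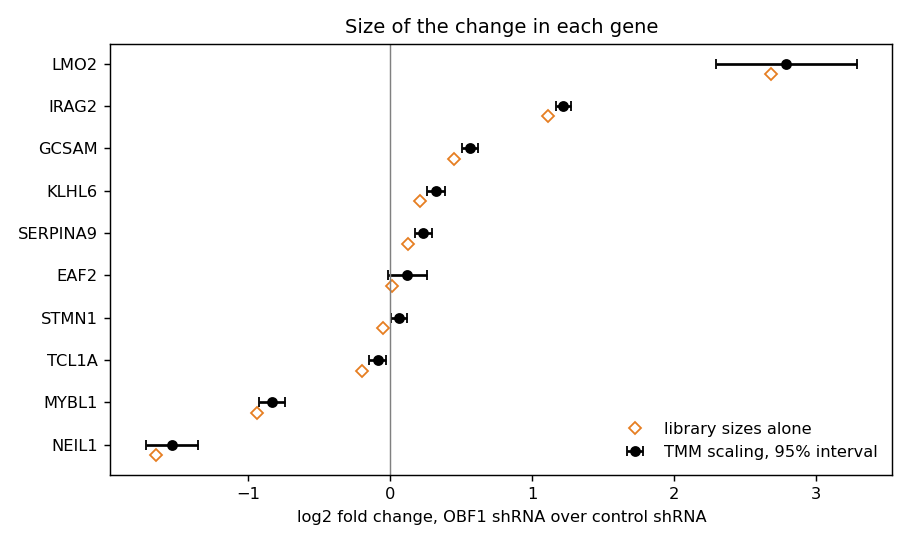
Log2 fold change of each marker gene, OBF1 shRNA over control shRNA, with TMM scaling and its 95% interval (black) and with library sizes alone (orange diamonds). Intervals lie to the right of 0 for LMO2, IRAG2, GCSAM, KLHL6 and SERPINA9 and to the left for NEIL1, MYBL1 and TCL1A. That of STMN1 lies barely to the right of 0, though the gene did not pass after adjustment, and that of EAF2 spans 0. Library sizes alone move every gene by about -0.11.

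The groups did not overlap in CPM for any of the 10 genes, against 76.6% of tested genes. LMO2 is 1 of these 10, and it passed the filter through the OBF1 shRNA libraries alone. Libraries within a group were close, with a coefficient of variation between 1.09% for STMN1 and 8.88% for NEIL1 in OBF1 shRNA libraries, and between 1.44% for IRAG2 and 6.60% for EAF2 in control libraries. The summed CPM of the 10 genes was 2056 to 2103 in OBF1 shRNA libraries and 1556 to 1599 in control libraries. IRAG2 made up the largest part of that difference, with means of 676 ± 14.7 CPM in OBF1 shRNA libraries and 290.3 ± 4.19 CPM in control libraries (SD, n = 3).

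Levels were compared between genes per length, as RPKM (reads per kilobase of the deposited gene length and 1000000 TMM-scaled reads). In OBF1 shRNA cells the order was IRAG2 at 217 RPKM, STMN1 at 128, SERPINA9 at 106, GCSAM at 105, TCL1A at 89.3, MYBL1 at 15.4, KLHL6 at 15.2, EAF2 at 9.78, NEIL1 at 1.57 and LMO2 at 0.688 RPKM. SERPINA9 and GCSAM, and MYBL1 and KLHL6, overlapped between their libraries and cannot be ordered. In control cells the order was STMN1 at 123 RPKM, TCL1A at 94.9, IRAG2 at 92.9, SERPINA9 at 89.9, GCSAM at 70.8, MYBL1 at 27.4, KLHL6 at 12.2, EAF2 at 8.98, NEIL1 at 4.59 and LMO2 at 0.0981 RPKM. There, TCL1A overlapped with IRAG2 and IRAG2 with SERPINA9. IRAG2 thus stood first with OBF1 shRNA and in a group of 3 genes of like level in control cells, where TCL1A and SERPINA9 were its neighbours. Its level exceeded that of 98.1% of tested genes in OBF1 shRNA cells and 94.8% in control cells. LMO2 exceeded 12.6% of tested genes in OBF1 shRNA cells and 2.31% in control cells, last of the 10 in both groups.

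**Figure D4:**
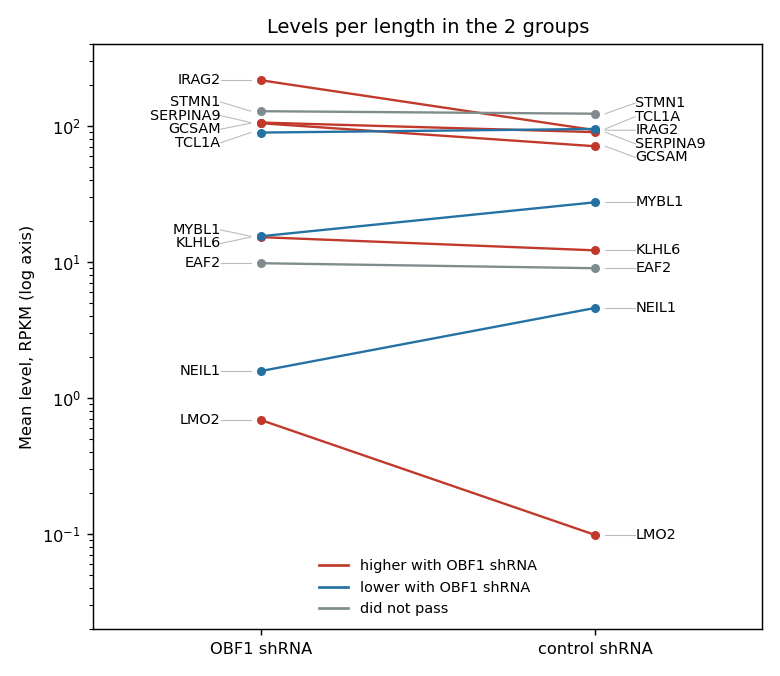
Mean RPKM of each marker gene on a log axis, OBF1 shRNA at the left and control shRNA at the right, 1 line per gene, coloured by whether the gene was higher, lower or did not pass. IRAG2 is first with OBF1 shRNA at 217 RPKM. In control cells, at 92.9 RPKM, it is behind STMN1 and overlaps TCL1A and SERPINA9. LMO2 is last in both groups.

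Genes of the germinal centre, of other B cell stages and of the cell cycle were set beside the marker genes. They form 6 lists, described by their counts alone and chosen with earlier results of these data known. Their counts are to be read against the 37.5% of all tested genes called higher and the 37.9% called lower. Of 29 other germinal centre genes, 13 were higher, 14 lower and 2 did not pass, with a median log2 fold change of -0.19. MARCKSL1, an actin-binding relative of MARCKS, was higher by 1.95 on the log2 scale, RGS13, a brake on G protein signalling, by 1.48 and BASP1, a membrane-bound phosphoprotein, by 1.34 (edgeR adjusted p = 2.50e-20, 2.58e-17 and 2.13e-17). The 4 genes used to check the stage of the cells, MME, BCL6, CD38 and MEF2B, which are also on that list, were all present and all lower, with a median of -0.99. BCL6, the master repressor of the germinal centre, was at 140, 140 and 139 CPM in OBF1 shRNA libraries, against 259, 254 and 269 CPM in control libraries.

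The germinal centre has a dark zone, where B cells divide and mutate, and a light zone, where they are selected. Of 13 tested dark zone genes, 4 were higher and 8 lower, with a median of -0.13. CXCR4, the receptor that holds cells in the dark zone, was at 129, 125 and 126 CPM in OBF1 shRNA libraries, against 394, 393 and 410.4 CPM in control libraries. HMMR, a spindle protein gene, was lower by 0.70 on the log2 scale, and the cyclin gene CCND3 was higher by 0.72. Of 15 tested light zone genes, 14 were higher and 1, MYC, named after its value was seen, was lower, with a median of 2.44. CCL22, TRAF1 and SLAMF1, a chemokine, a signalling adaptor and a lymphocyte receptor, were higher by 5.69, 4.17 and 5.90 on the log2 scale. The marker genes covered a narrower range than the light zone list, from -1.54 to 2.79. The upper end is LMO2, which had to be higher to be tested at all, and IRAG2 was next at 1.22.

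Naive and memory B cell genes, which label B cells outside the germinal centre, were higher in 8 and lower in 3 of 12 tested, with a median of 1.64. CCR7 and GPR183, receptors that position B cells outside the germinal centre, were higher by 3.46 and 3.70 on the log2 scale, and CR2, the complement receptor CD21, by 1.54. Plasma cell genes were higher in 5 and lower in 6 of 13 tested, beside 37.5% and 37.9% of all tested genes, with a median of -0.26. XBP1, of the secretory programme, was lower by 1.18, ERN1, the kinase that activates XBP1, by 2.02, and the receptor gene CD27, on both lists, by 0.77. IRF4, a regulator of plasma cell fate, and SLAMF7, a receptor of plasma cells, both named after their values were seen, were higher by 3.66 and 2.56. PRDM1, another such regulator on this list and also named after its value was seen, was lower by 3.21. Its means were 0.733 CPM in OBF1 shRNA libraries and 6.81 CPM in control libraries. Cell cycle genes had a median of -0.20. HMGB2, a chromatin protein gene, was lower by 0.51, the centromere protein gene CENPF lower by 0.59 and the tubulin gene TUBB higher by 0.45.

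**Figure D5:**
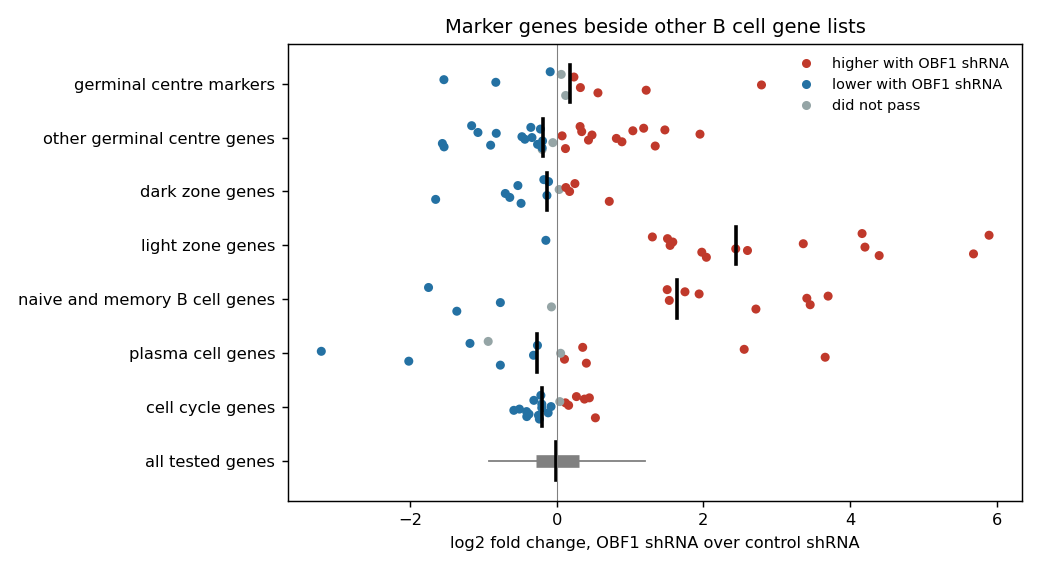
Log2 fold changes, OBF1 shRNA over control shRNA, of the 10 marker genes and of 6 other lists; points are tested genes, red if called higher, blue if called lower and grey if they did not pass, and black bars are medians. For all tested genes the box spans the 25th to the 75th and the line the 5th to the 95th percentile. The marker genes, LMO2 included, fall on both sides of 0 with a median of 0.18, against 2.44 for light zone genes.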

How the data were processed

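RNA sequencing libraries of Raji cells (3 with OBF1 shRNA, 3 with control shRNA) were grouped by their titles. The authors deposited 1 table of raw read counts per gene with a column of gene lengths. Per the labels' protocols, the kit for mRNA libraries was a stranded one. The submitters' processing notes list the builds hg19 and mm9; for the aligner, counter, annotation and strand setting, nothing is given in the sources used here. Of 23459 numeric identifiers, 23308 matched a RefSeq table (GRCh38.p14), used for symbols and for which genes overlap; 151 rows without a symbol, holding 0.116% to 0.138% of the counts, stayed in the test. No column of per-sample values was left out.

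Counts were fitted in R 4.3.3 with edgeR 4.0.16: filterByExpr (min.count 10, min.total.count 15), TMM scaling, glmQLFit and glmQLFTest on all 6 libraries without covariates, Benjamini-Hochberg over 12010 genes, threshold 0.05. SE is the log2 fold change divided by the square root of F, and 95% intervals use the total degrees of freedom. Tested on simulated counts for this comparison (11922 genes tested, 50 changed at each fold), it found 86% of the genes changed 1.25-fold, 94% of those changed 1.5-fold, and 100% of those changed 2-fold or 4-fold. Of the genes it called there, 5.47% were unchanged. The simulation had far fewer changed genes than the data, so scaling was not tested at that number. Its changed genes all had a control mean above 1 CPM, and all genes shared a single dispersion. The recovery values therefore do not cover scarce genes such as LMO2 or genes with a wider spread.

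Alternatives were DESeq2 1.42.0 on all rows with a count, limma-voom (limma 3.58.1), 3 other scalings, 2 other filters, the replicate block, glmTreat against 1.5-fold, and leaving out each library. The genes named are the 10 marker genes, POU2AF1, and 3 members of each list with the smallest p-values. The markers of cell types and genes that overlap a marker gene were added. List genes named after their values were seen are marked so. The marker genes and the lists were chosen with earlier results of these data known. Replicate libraries of a group differed by more than counting error (chi-square per degree of freedom 1.84 to 3.17), so none was counted as a repeat. A gene of the lists is not reported here and was left out of their counts.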

Additional observations from a re-analysis of the deposited data

How the results depend on the processing

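IRAG2, NEIL1 and MYBL1 kept their direction and their call under all 15 alternatives. LMO2 did too, but with the low-count filter it could be tested only if higher, so its repeats are a description. Over all 10 marker genes, LMO2 included, 136 of 150 repeats kept direction and side of the threshold. Testing against 1.5-fold with glmTreat, a stricter question, ended the calls of SERPINA9 (0.23), GCSAM (0.56), KLHL6 (0.32) and TCL1A (-0.089), all with adjusted p = 1, leaving 2 marker genes higher and 2 lower. STMN1 reversed with library sizes alone (-0.048), and was called higher with DESeq2 (0.069), RLE size factors (0.065), limma-voom (0.062), the filter of 1 CPM in 3 libraries (0.061), and no low-count filter (0.067). With 1 library left out, log2 fold changes ranged from 0.033 to 0.083 for STMN1, from -0.099 to -0.062 for TCL1A and from 0.076 to 0.17 for EAF2. STMN1 was also called without control replicate 3 (adjusted p = 0.036) or control replicate 2 (0.0124). The cause of these moves was not tested. Library sizes alone shifted all log2 fold changes by a median of -0.11, gave 3476 higher and 5778 lower genes instead of 4508 and 4550, and left 2 dark zone genes higher. glmTreat called 1967 genes, 1180 higher and 787 lower. It left 7 higher and 6 lower of the other germinal centre genes, 1 higher and 2 lower of the dark zone genes, 2 higher plasma cell genes, 0 lower light zone genes, and 0 cell cycle genes in either direction. Same-numbered libraries did not deviate together (correlations 0.00979, -0.119 and -0.0639), and different-numbered ones ranged from -0.05 to 0.112. No pairing by number was seen, though such weak values cannot exclude a shared culture. With the replicate block 8759 genes were called instead of 9058, and no marker gene changed its call. LMO2 rests on 26 control reads in all, which limits the precision of its fold change.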
